A study of Mus musculus with 23 samples.

Results

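The genes described here are those of the interferon response, of the major histocompatibility complex (MHC) and of complement, together with leukocyte surface molecules of the CD nomenclature, as measured in the prefrontal cortex of mice bearing a subcutaneous tumour. Members were chosen by a fixed rule on the platform gene symbol, which takes most symbols that begin with letters such as Ifn, Irf, Isg, Oas, Gbp, H2-, C1q or Cd followed by a digit. The rule used names alone and no measured value. It found 111 probes of 110 genes among 8997 probes with 1 gene symbol. A probe is the oligonucleotide or oligonucleotides of 1 sequence entry. Cd47 had 2 probes and every other gene had 1. By symbol, 7 probes belonged to interferons and their receptors, 8 to factors of interferon signalling, 19 to interferon-induced effectors, 12 to antigen presentation, 14 to complement and 51 to CD surface molecules. The names caught some genes outside these functions. Of the 14 complement probes, 5 are of complement proteins and 9 are of C1q-domain relatives or of C1qbp, a mitochondrial C1q-binding protein, and Cd2ap and Cd2bp2 are intracellular binding partners of Cd2 rather than CD antigens.

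Male Balb/c mice of 8 weeks were injected subcutaneously with 1000000 cells of CT-26.WT, a line from a mouse colon carcinoma, in 300 µl PBS, or with 300 µl PBS alone, and the prefrontal cortex was taken 18, 72 or 192 h later. Each 2-colour array carried cortex RNA of tumour-injected mice against cortex RNA of PBS-injected mice of the same time, so each value is a log2 ratio of tumour over PBS, where 0 means equal brightness. The kept data are 3 replicates at 18 h, 2 at 72 h and 4 at 192 h, on 16 of 23 arrays. The mice were immunocompetent and the tumour lay outside the brain. The labels do not say whether a replicate was 1 mouse or a pool, so p-values measure the spread between these samples only. In bulk tissue, fewer cells of a type and less RNA per cell cannot be told apart. Which scanner channel held which dye was inferred from the deposited scores. Every direction below would turn if that assignment were wrong.

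Interferons are secreted cytokines. Type I interferons act through the receptor pair Ifnar1 and Ifnar2 and interferon gamma through a receptor that includes Ifngr2, and both signal through Stat and Irf factors to induce antiviral effectors, MHC class I genes and guanylate-binding proteins. Complement is a cascade of plasma proteins that in the brain is made mainly by microglia and astrocytes, and C1q, made by microglia, also tags synapses for removal. In healthy cortex the MHC genes and most leukocyte CD molecules are found in microglia, vascular cells and the few resident leukocytes, whereas tetraspanins and Cd47 are found in many cell types.

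Promoters were read for the members from RefSeq, build GRCm38.p6, as windows from 250 bases before to 50 bases after the start of the gene, and 78 of the 110 genes matched. 3 interferon-induced genes measured here are shown because they carry the core of the interferon-stimulated response element, searched as GAAANNGAA on both strands, with the core in capitals (reverse-strand matches read TTCNNTTTC). H2-M2, a class I type MHC gene, is shown with its CCAAT box in capitals, since it had the smallest p-value of its class at 18 h.
Isg15, chr4:156200769-156201068, minus strand: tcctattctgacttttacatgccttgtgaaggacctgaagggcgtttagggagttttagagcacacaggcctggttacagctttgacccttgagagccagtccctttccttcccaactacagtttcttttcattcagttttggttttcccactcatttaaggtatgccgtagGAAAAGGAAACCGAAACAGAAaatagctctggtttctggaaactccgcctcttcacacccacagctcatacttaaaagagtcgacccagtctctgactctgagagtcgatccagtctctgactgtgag
Ifit3, chr19:34583279-34583578, plus strand: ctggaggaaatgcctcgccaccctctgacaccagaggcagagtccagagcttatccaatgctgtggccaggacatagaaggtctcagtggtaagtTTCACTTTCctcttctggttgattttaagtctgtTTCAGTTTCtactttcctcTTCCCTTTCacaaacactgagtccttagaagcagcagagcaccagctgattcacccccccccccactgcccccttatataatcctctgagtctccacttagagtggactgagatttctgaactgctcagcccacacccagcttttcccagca
Ifitm2, chr7:140955912-140956211, minus strand: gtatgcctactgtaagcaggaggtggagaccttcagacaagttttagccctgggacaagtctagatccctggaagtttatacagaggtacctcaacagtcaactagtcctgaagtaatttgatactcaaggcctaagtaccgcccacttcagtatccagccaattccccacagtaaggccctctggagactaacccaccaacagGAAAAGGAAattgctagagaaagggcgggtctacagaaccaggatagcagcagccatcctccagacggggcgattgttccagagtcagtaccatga
H2-M2, chr17:37483505-37483804, minus strand: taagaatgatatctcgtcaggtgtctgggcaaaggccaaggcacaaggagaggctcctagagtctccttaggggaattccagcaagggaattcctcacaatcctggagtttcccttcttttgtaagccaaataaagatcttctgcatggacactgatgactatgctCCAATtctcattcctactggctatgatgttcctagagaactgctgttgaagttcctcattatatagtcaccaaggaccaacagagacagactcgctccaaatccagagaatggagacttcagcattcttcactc
Isg15 held 3 cores that overlap one another, Ifit3 held 3 and Ifitm2 held 1. The core was present in 17 of the 78 member promoters (21.8%), against 8.57% of 27025 promoters. It was present in 9 of 13 promoters of interferon-induced effectors (69.2%), in none of 8 of the signalling factors and in none of 8 of antigen presentation. The gamma-activated site, searched as TTCNNNGAA, was in 9 of the 78 (11.5%), against 8.47% of all promoters. The CCAAT box was in 7 of 8 promoters of antigen presentation genes (87.5%) and in 27 of all 78 (34.6%), against 37.9% of all promoters. A match is a description of these letters, not of a bound factor.

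The members gave dim spots. Brightness was ranked on each kept array among all named probes, with spots without signal ranked lowest, and the median over the 16 arrays was taken as the probe's percentile. It describes how well a probe is measured and is no measure of transcript level between genes. The median percentile was 36.1 for the members against 46.7 for all probes, and 8 of 111 members (7.21%) lay at or above the 75th percentile, against 17.9% of all probes. The interferon-induced effectors were the dimmest class, with a median of 28.1, and interferons and receptors had 29.6. The signalling factors, at 42.1, were the brightest class by median. The brightest members were Cd82 at 93.0, Cd36 at 88.6, Cd63 at 88.1, the brighter Cd47 probe at 86.1 and C1qtnf4 at 85.1, and the brightest of the other classes were Irf3 at 71.1, Ifngr2 at 62.9, Isg20 at 62.6 and H2-M2 at 58.4. Snap25, a neuronal synaptic gene outside the members, lay at the 99.0th percentile.

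**Figure D1:**
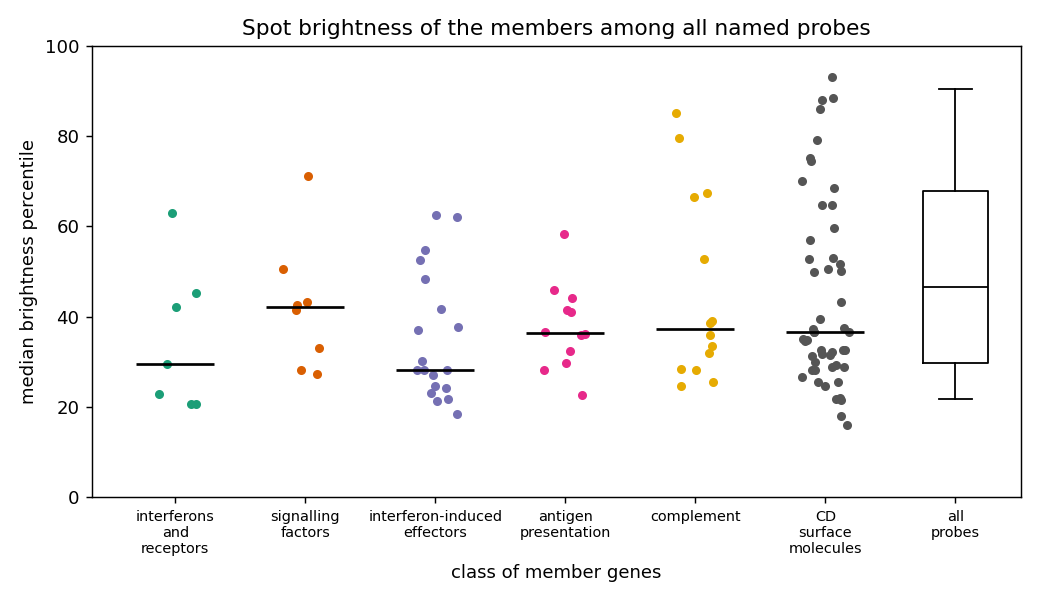
Median brightness percentile of each member probe over the 16 kept arrays (points, with the class median as a line) by class, beside all 8997 named probes (box, quartiles and median, whiskers at the 5th and 95th percentiles). The interferon-induced effectors have a median of 28.1, against 46.7 for all probes.

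Many members had a value in part of the replicates only. A replicate gave between 37 and 98 members a value. All 9 replicates gave a value for 5 probes, which were both of Cd47, Cd7, Cd82 and C1qtnf4. At least 2 replicates, the minimum for a test, were had by 61 members at 18 h (55%), 39 at 72 h (35.1%) and 76 at 192 h (68.5%), against 63.7%, 51.3% and 79.3% of all probes. 94 members were tested at 1 time or more and 17 at all times. The 17 left untested at every time include Ifnb1 and Ifnar2, Irf1, Irf7 and Stat4, and Mx1 and Oasl2.

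The dye orientations of a replicate did not give like ratios. In the 6 replicates measured in both dye orientations, the log2 ratios of tumour over PBS with tumour in Cy5 and with tumour in Cy3 correlated over the members between -0.55 and 0.013 (37 to 98 members each), and over all probes between -0.40 and 0.089. These are correlations across probes that share arrays and are given as a description. The sign was the same in both orientations for 37.8% to 59.2% of the members. Averaging the orientations cancels a constant dye effect, which the 3 replicates of 1 orientation (72 h replicate 3, 192 h replicates 1 and 2) do not allow. Over the members, 192 h replicate 1, with tumour in Cy5, and 192 h replicate 2, with tumour in Cy3, correlated at -0.46 (34 members), and over all probes at -0.47. Those 2 replicates are also the ones made from poly(A) RNA, and their member ratios had SDs of 0.35 and 0.51, against 0.23 and 0.20 in replicates 3 and 4. The array that makes up 72 h replicate 3 matched the brightness order of the other kept arrays of its own layout at a mean rho of only 0.061. The other kept arrays of that layout had 0.22 to 0.46, so the 72 h median is also given without replicate 3. On replicate 4 alone, the median log2 ratio of 39 members was 0.050, against 0.019 for all probes.

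**Figure D2:**
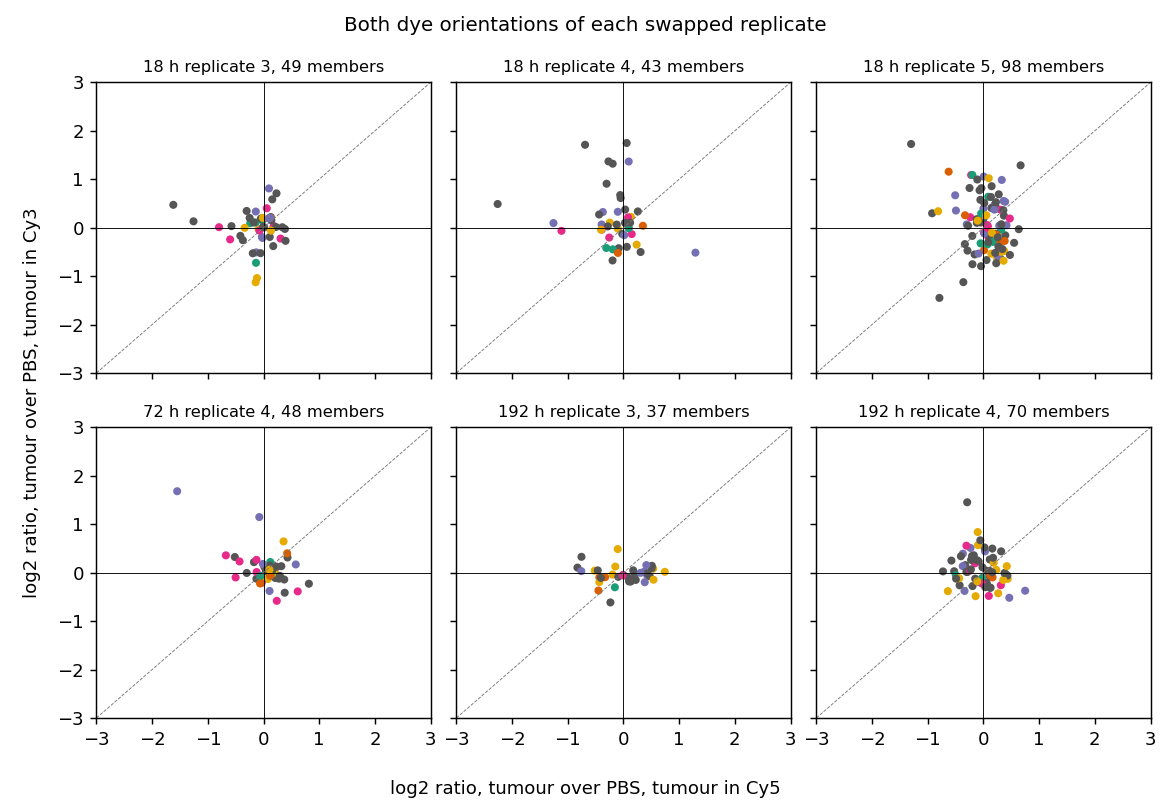
Log2 ratio of tumour over PBS of each member (points, coloured by class as in the plot of members by replicate) with tumour RNA in Cy5 (horizontal) and in Cy3 (vertical), for each of the 6 dye-swapped replicates; the dashed line marks equal values. The points do not follow the line in any panel, and the correlations run from -0.55 to 0.013.

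No member passed the test at any time. With limma's test and Benjamini-Hochberg adjustment over all probes, 0 of 61 members at 18 h, 0 of 39 at 72 h and 0 of 76 at 192 h had an adjusted p under 0.05, and the share of all probes called was 0% at each time. Members had adjusted p of at least 0.995 at 18 h, 1.00 at 72 h and 0.999 at 192 h. Before adjustment, 3 members at 18 h (4.92%), 1 at 72 h (2.56%) and 2 at 192 h (2.63%) had p under 0.05, against 4.66%, 1.06% and 2.59% of all probes. The members' shares were near those of all probes at 18 and 192 h, and the 72 h share is a single gene.

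The module as a whole stayed near a ratio of 1. At 18 h the median log2 ratio of the tested members was 0.027, with 34 above 0 and 27 below, against a median of -0.017 for all probes. At 72 h it was -0.010, with 18 above and 21 below, against -0.011. At 192 h it was -0.0051, with 36 above and 40 below, against 0.014. The medians of single replicates were 0.0047, -0.029 and 0.034 at 18 h, -0.0016 and 0.067 at 72 h, and -0.091, 0.073, -0.011 and 0.018 at 192 h in replicates 1 to 4. The 192 h replicates lie on both sides of 0, and the outermost of them are the poly(A) replicates of opposite dye orientation.

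**Figure D3:**
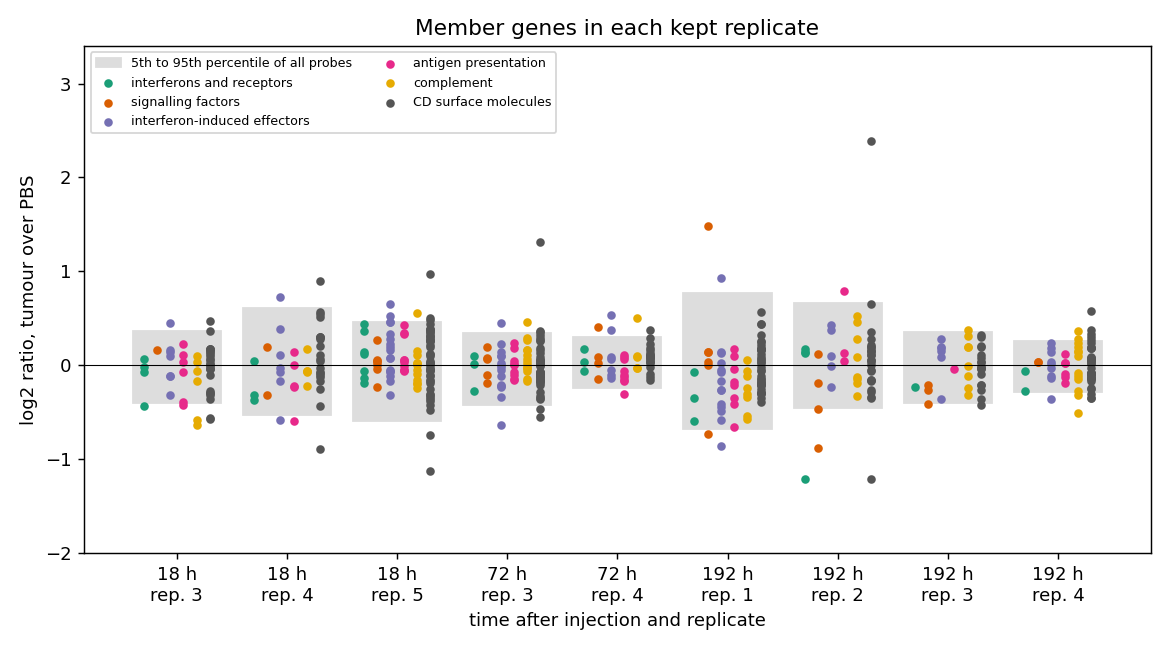
Log2 ratio of tumour over PBS (vertical) of every member with a value in each of the 9 kept replicates (horizontal), as points coloured by class; grey bars run from the 5th to the 95th percentile of all probes. Members spread around 0 in every replicate, and the highest replicate value is that of Cd52 at 2.39 in 192 h replicate 2.

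The intervals describe how closely the ratios of the tested members, as measured, were fixed by the spread between replicates. They take 1 spread for all replicates of a probe. A dye effect in the 3 replicates of 1 orientation, unequal spread between replicates and the low signal over background are not covered by them. The 95% confidence interval of the log2 ratio, taken gene by gene, lay wholly between -1 and 1, that is inside a 2-fold change either way, for 58 of 61 members at 18 h, 38 of 39 at 72 h and 73 of 76 at 192 h. The same held for 94.9%, 96.9% and 96.2% of all probes. The median standard error of a member was 0.17, 0.16 and 0.16 at 18, 72 and 192 h. The exceptions were Irf3, Cd2ap and Cd52 at 18 h, Irf3 at 72 h, and Ifitm7, Cd33 and Cd52 at 192 h. Changes smaller than these intervals, and changes in untested members, were not detectable here.

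**Figure D4:**
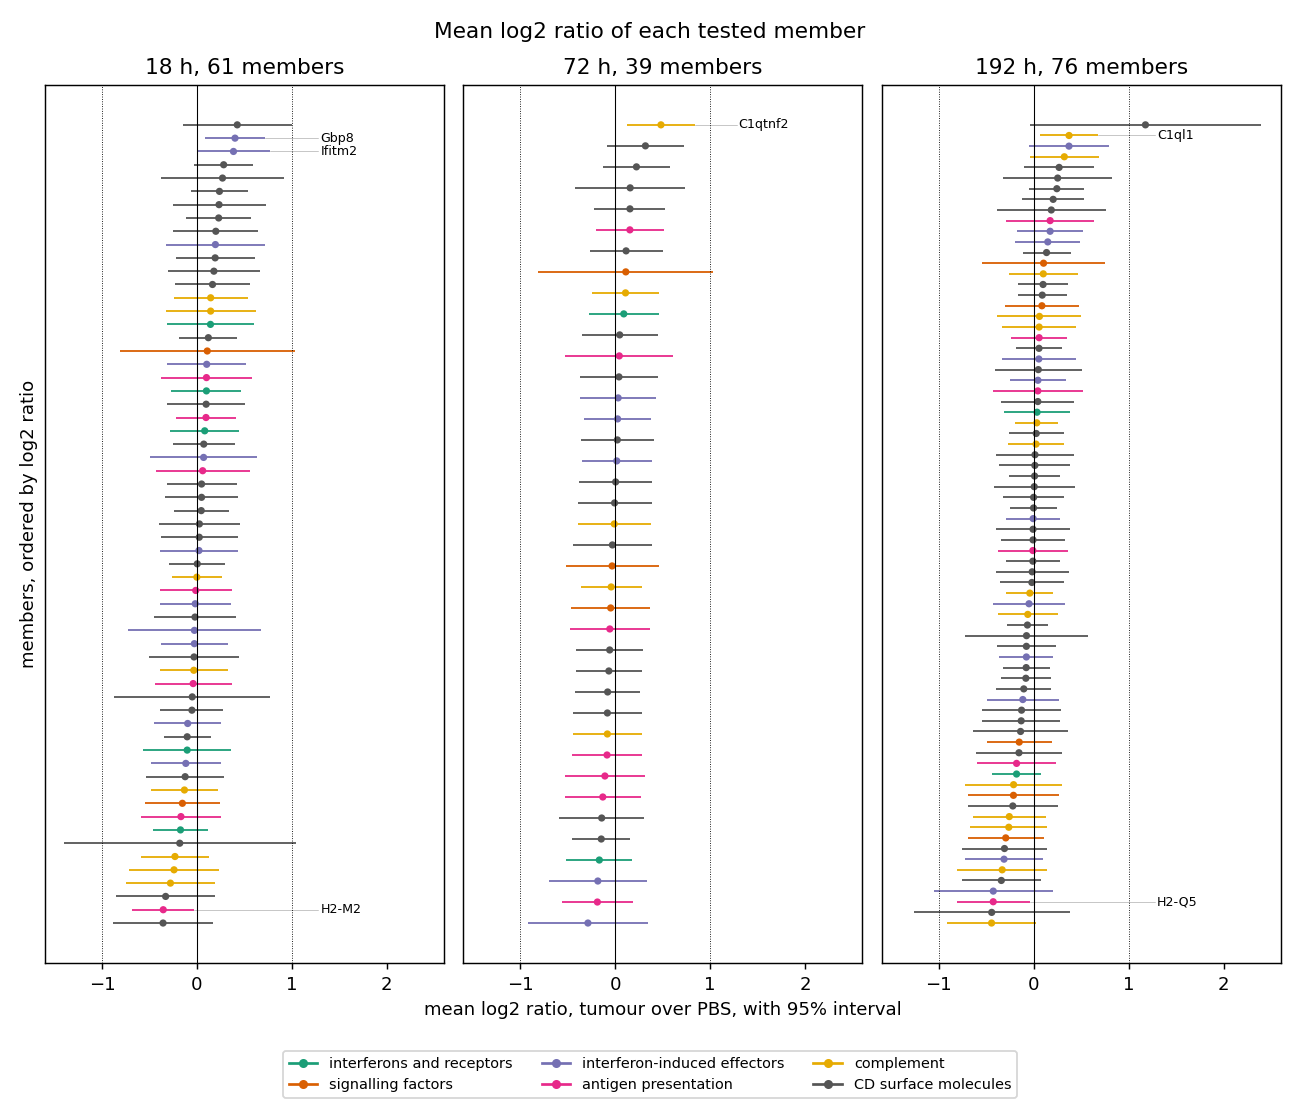
Mean log2 ratio of tumour over PBS (points) with its 95% confidence interval (lines) for each tested member at 18, 72 and 192 h, ordered by value and coloured by class; dotted lines mark 2-fold changes and the 6 named genes have an unadjusted p under 0.05. Of 61, 39 and 76 intervals, 58, 38 and 73 lie between the dotted lines.

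Among the interferons and their receptors, Ifna4, a type I interferon, had log2 ratios of -0.43, -0.32 and 0.44 in the 18 h replicates, which do not share a sign. Ifng, the type II interferon, had 0.063 and 0.14 at 18 h and 0.0095 and 0.17 at 72 h. Ifngr2, a subunit of its receptor and the brightest probe of the class, had -0.018, -0.36 and -0.13 at 18 h, with a mean of -0.17 ± 0.13 (SE). All 3 of those values lay below 0, and both 72 h values did as well, at -0.27 and -0.064, while the 192 h values were 0.14 and -0.066. Ifnar1, which with Ifnar2 forms the type I receptor, had 0.041 and 0.12 at 18 h and -0.35, 0.13, -0.23 and -0.27 in 192 h replicates 1 to 4, where 3 of 4 values lay below 0 (mean -0.18 ± 0.11, SE). Ifnz, a type I interferon family member, had -1.21 in 192 h replicate 2 and no value in the other 192 h replicates, so it was tested at 18 h only.

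Of the signalling factors, Irf3, which is activated downstream of viral RNA and DNA sensors, had a value in 8 replicates. At 18 and 72 h its 4 log2 ratios lay between 0.027 and 0.20. At 192 h they were 1.48, -0.88, -0.21 and 0.033 in replicates 1 to 4. The 192 h values thus range over more than 2 log2 units, with the highest on the array with tumour in Cy5 alone and the lowest in the replicate with tumour in Cy3 alone, and the mean was 0.10 ± 0.29 (SE). Without replicate 1 that mean turned to -0.35. Stat6, the signal transducer of interleukin 4, had -0.73, 0.12 and -0.27 in 192 h replicates 1 to 3. Irf9, a DNA-binding factor of type I interferon signalling, had 0.14, -0.19 and -0.41 there. Irf5 had 0.14 and 0.033 in 192 h replicates 1 and 4, and Irf8, a factor of microglia and other myeloid cells, had 0.037 and -0.46 in replicates 1 and 2. Irf7, the amplifier of type I interferon production, had a full dye-swap value in 1 replicate only, 0.27 at 18 h. On single arrays its log2 ratio was above 0 on all 4 with tumour in Cy3 (0.19 to 1.16) and below 0 on all 3 with tumour in Cy5 (-0.62 to -0.45), so its sign followed the dye.

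At 18 h, 3 of 61 tested members had an unadjusted limma p under 0.05, against 267 of 5733 probes. Of these 3, 2 were interferon-induced effectors, Gbp8 with the smallest p and Ifitm2. The other was H2-M2 of antigen presentation, whose p lay between theirs. Gbp8, a guanylate-binding protein of the interferon-gamma response, had log2 ratios of 0.16, 0.39 and 0.66 at 18 h. All 3 lay above 0, for a mean of 0.40 ± 0.14 (SE) or 1.32-fold (limma, unadjusted p = 0.0205, adjusted p = 0.995). In 18 h replicate 4 the orientations differed. With tumour in Cy5 the Gbp8 spot had a log2 brightness of 18.1 for tumour RNA and 16.8 for PBS RNA, and with tumour in Cy3 it had 15.6 for tumour RNA and 16.1 for PBS RNA. These values were computed from the spot's mean log2 brightness and its normalised log2 ratio. They restate the ratios of 1.29 with tumour in Cy5 and -0.52 with tumour in Cy3. In replicates 3 and 5 both orientations were above 0. At 192 h Gbp8 had 0.14 and -0.027.

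Ifitm2, an interferon-induced transmembrane protein that blocks virus entry and whose promoter core is shown above, had 0.14, 0.73 and 0.28 at 18 h. All 6 arrays of these replicates had a ratio above 0, between 0.094 and 1.37, and the mean was 0.39 ± 0.17 (SE) or 1.31-fold (limma, unadjusted p = 0.0476, adjusted p = 0.995). Without 18 h replicate 4 the mean was 0.21. At 192 h Ifitm2 had -0.27, 0.28 and -0.36 in replicates 1, 3 and 4, with values on both sides of 0.

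Isg15, the ubiquitin-like modifier that is among the first genes induced by type I interferon, had -0.072 and 0.46 at 18 h, -0.23 and -0.14 at 72 h, and 0.93, 0.099 and 0.092 in 192 h replicates 1 to 3. The 192 h mean was 0.37 ± 0.19 (SE; limma, unadjusted p = 0.0779, adjusted p = 0.999), with all 3 values above 0 and the highest in replicate 1, measured with tumour in Cy5 alone. Without replicate 1 the 192 h mean of Isg15 was 0.096. On single arrays of all times Isg15 lay above 0 on 5 of 6 with tumour in Cy5 and on 2 of 8 with tumour in Cy3.

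Ifit3, a tetratricopeptide antiviral protein, had -0.26 and -0.36 in 192 h replicates 1 and 3, both below 0, with a mean of -0.31 ± 0.17 (SE). The single values of Ifit3 at the earlier times, 0.46 in 18 h replicate 5 and 0.37 in 72 h replicate 4, lay above 0. Gbp4 had -0.049, 0.43 and 0.14 in 192 h replicates 1, 2 and 4, and Gbp2b had -0.49, -0.0082, 0.15 and 0.039 in replicates 1 to 4. Ifi27 had -0.17, 0.38 and 0.23 in replicates 1, 2 and 4. Ifitm7, a relative of Ifitm2, had -0.86 and 0.012 in replicates 1 and 4 and -0.64 and 0.065 in the 72 h replicates. The -0.86 and the -0.64 came from replicates with tumour in Cy5 alone. On single arrays of all times Ifitm7 lay below 0 on all 6 with tumour in Cy5 and on 1 of 3 with tumour in Cy3. Ifih1, the double-stranded RNA sensor, had -0.32, -0.16 and 0.20 at 18 h. Oas1g, of the oligoadenylate synthetase family, had means of -0.017 at 18 h and -0.048 at 192 h. Ifi35 had means of -0.026, 0.025 and -0.0045 at 18, 72 and 192 h, and Isg20, an exonuclease, had -0.12, 0.016 and 0.046. Gbp2, Gbp3 and Ifi27l2a were tested at 18 h only, each with values on both sides of 0. Of the class, 6 of 11 tested members lay above 0 at 18 h (median 0.022), 3 of 5 at 72 h (median 0.016) and 5 of 11 at 192 h (median -0.0045). The 17 members with the response element core in the promoter, in all classes, did not stand on 1 side of 0, with 8 of 12 tested above 0 at 18 h (median 0.048), 3 of 6 at 72 h (median -0.018) and 4 of 11 at 192 h (median -0.048).

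**Figure D5:**
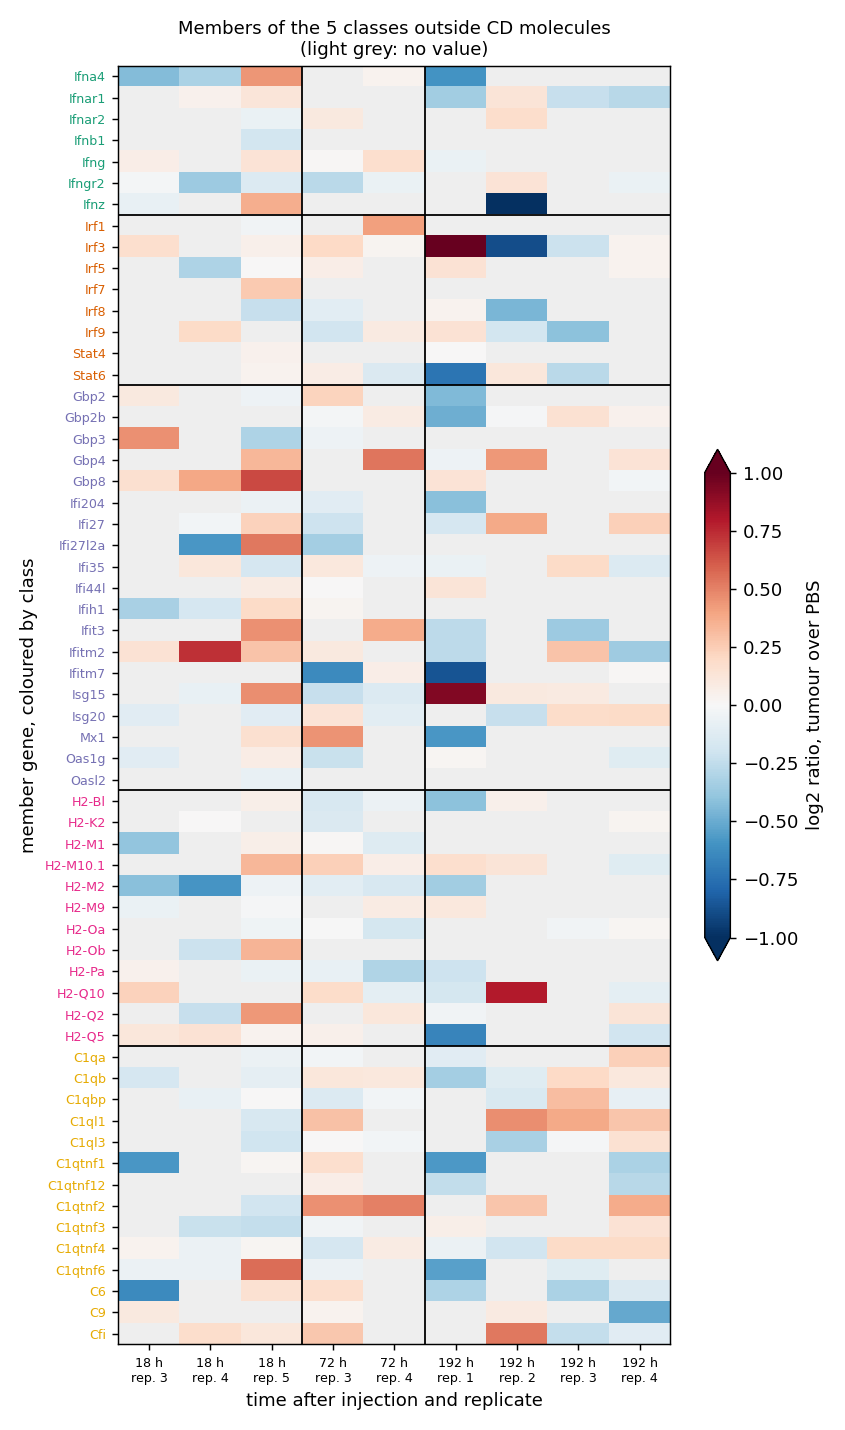
Log2 ratio of tumour over PBS (colour scale, saturated beyond -1 and 1) of the 60 members outside the CD class in each of the 9 kept replicates, with symbols coloured by class and light grey where there is no value. No class has 1 colour through a time. Irf3 has deep colours of opposite direction in 192 h replicates 1 and 2, and Isg15 has its deepest colour in 192 h replicate 1.

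Among the antigen presentation genes, which share long stretches of sequence, so that a probe may also bind a relative, H2-M2, a non-classical class I gene, had log2 ratios of -0.42, -0.59 and -0.051 at 18 h. All 3 lay below 0, as did the 2 values at 72 h (-0.10 and -0.16) and the 1 value at 192 h (-0.35). The -0.10 and the -0.35 came from replicates with tumour in Cy5 alone. On single arrays of all times H2-M2 lay below 0 on 5 of 6 with tumour in Cy5 (mean -0.46). With tumour in Cy3 it lay below 0 on 4 of 6 (mean 0.053). In 18 h replicate 4 the orientations gave -1.11 with tumour in Cy5 and -0.066 with tumour in Cy3. The 18 h mean was -0.35 ± 0.14 (SE; limma, unadjusted p = 0.0370, adjusted p = 0.995). H2-Q5, a class I type gene, had 0.11, 0.15 and 0.031 at 18 h, all above 0, and -0.66 and -0.19 in 192 h replicates 1 and 4, both below 0. Its 192 h mean was -0.43 ± 0.17 (SE; unadjusted p = 0.0339, adjusted p = 0.999), and the difference of 192 h from 18 h was -0.52 ± 0.21 (SE; unadjusted p = 0.0414, adjusted p = 0.999). Without 192 h replicate 1, a poly(A) replicate with tumour in Cy5 alone, the 192 h value was -0.19.

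H2-Q10, a secreted class I molecule made in liver, had -0.18, 0.80 and -0.097 in 192 h replicates 1, 2 and 4. H2-Pa had -0.075 and -0.30 at 72 h. H2-Bl had -0.16 and -0.056 at 72 h and -0.41 and 0.050 in 192 h replicates 1 and 2. H2-M1 had -0.40 and 0.060 at 18 h, H2-M9 had -0.067 and -0.011, and H2-Q2 had -0.23 and 0.43. H2-M10.1 had 0.24 and 0.069 at 72 h and 0.17, 0.13 and -0.12 in 192 h replicates 1, 2 and 4. Over the class I type genes, 2 of 5 tested lay above 0 at 18 h, 2 of 5 at 72 h and 3 of 5 at 192 h, with medians of -0.039, -0.057 and 0.045. The class II accessory genes H2-Oa and H2-Ob, which tune peptide loading, and Cd74, the invariant chain, had tested means between -0.086 and 0.061.

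C1qa and C1qb encode chains of C1q, the starter of the classical complement pathway. C1qb had -0.17 and -0.091 at 18 h, 0.11 and 0.10 at 72 h, and -0.34, -0.12, 0.20 and 0.10 in 192 h replicates 1 to 4. Both 18 h values lay below 0, both 72 h values above it, and the 192 h values on both sides. Its mean over the 3 times was -0.021 ± 0.083 (SE), with a 95% confidence interval from -0.21 to 0.16. C1qa had -0.11 and 0.24 in 192 h replicates 1 and 4. C6, of the membrane attack complex, had -0.31, -0.31 and -0.15 in 192 h replicates 1, 3 and 4, all below 0 (mean -0.26 ± 0.17, SE), and -0.63 and 0.15 at 18 h. C9, of the same complex, had 0.089 and -0.51 in 192 h replicates 2 and 4, and Cfi, the protease that inactivates C3b, had 0.53, -0.24 and -0.11 in replicates 2 to 4. Of the 5 complement proteins, 1 of 3 tested lay above 0 at 18 h, 1 of 1 at 72 h and 2 of 5 at 192 h.

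The C1q-domain relatives held the smallest p-values of the later times. C1qtnf2, a secreted C1q and tumour necrosis factor related protein, had 0.46 and 0.50 at 72 h, for a mean of 0.48 ± 0.15 (SE) or 1.40-fold (limma, unadjusted p = 0.0166, adjusted p = 1.00). In 72 h replicate 4 both orientations of C1qtnf2 lay above 0, at 0.65 with tumour in Cy3 and 0.36 with tumour in Cy5. Without 72 h replicate 3 the value was 0.50 and its unadjusted p above 0.05. C1qtnf2 had 0.28 and 0.37 in 192 h replicates 2 and 4, again above 0, and -0.19 in the 1 replicate at 18 h. With all 23 arrays under their deposited names its 72 h mean was -0.0020. C1ql1, a synaptic organiser made by neurons, had -0.16 in the 1 replicate at 18 h, 0.29 in the 1 replicate at 72 h, and 0.46, 0.38 and 0.28 in 192 h replicates 2, 3 and 4. All 3 of the 192 h values lay above 0, as did the 5 single arrays behind them, which ran from 0.017 to 0.74, and the mean was 0.37 ± 0.13 (SE; limma, unadjusted p = 0.0225, adjusted p = 0.999).

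C1qtnf1 had -0.57 and -0.31 in 192 h replicates 1 and 4 (mean -0.44 ± 0.20, SE) and -0.58 and 0.022 at 18 h. C1qtnf6 had -0.060, -0.062 and 0.56 at 18 h and -0.54 and -0.12 in 192 h replicates 1 and 3. Without 18 h replicate 5 the 18 h mean of C1qtnf6 was -0.061, against 0.15 with it. C1qtnf12 had -0.25 and -0.28 in 192 h replicates 1 and 4. C1qtnf3 had -0.22 and -0.24 at 18 h and 0.061 and 0.14 in 192 h replicates 1 and 4. C1qtnf4, with a value in all 9 replicates, ranged from -0.19 to 0.19 and had a mean over the 3 times of -0.0030 ± 0.071 (SE), the narrowest of the complement class. C1qbp ranged from -0.15 to 0.31 over 7 replicates, and C1ql3, a synaptic relative of C1ql1, from -0.33 to 0.15 over 6.

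The CD molecules were grouped by the cells they mark, after their values were seen. Of the T cell molecules, Cd3e, a chain of the T cell receptor complex, had -0.36, -0.89 and 0.26 at 18 h and 1.31 in 72 h replicate 3, the doubted array. Cd247, the zeta chain of the receptor complex, had 0.018 and 0.29 at 72 h and 0.18, 0.19, -0.21 and 0.24 in 192 h replicates 1 to 4. Cd5, an inhibitory receptor of T cells, had 0.36 and 0.089 at 72 h and 0.35, 0.20 and 0.19 in 192 h replicates 2 to 4, above 0 at both times, with means of 0.22 ± 0.15 and 0.24 ± 0.12 (SE), and -0.29 in the 1 replicate at 18 h. Cd27 had -0.25 and -0.43 in 192 h replicates 1 and 3, and Cd96, a receptor of T and natural killer cells, had 0.37 and 0.029 at 18 h, -0.47 and 0.18 at 72 h and -0.31 in each of 192 h replicates 1 and 4. Over 12 T cell genes, 2 of 4 tested lay above 0 at 18 h, 4 of 6 at 72 h and 4 of 8 at 192 h, with medians of 0.056, 0.022 and -0.0028.

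Of the B cell molecules, Cd79a, a signalling chain of the B cell receptor, had 0.26 and 0.37 at 72 h and -0.061, -0.34, 0.20 and 0.31 in 192 h replicates 1 to 4. Its partner Cd79b had -0.21 and 0.089 at 72 h, so the chains of 1 receptor did not share their values. Of the microglia and myeloid molecules, Cd14, the co-receptor for lipopolysaccharide, had -0.21 and 0.58 in 192 h replicates 1 and 4. Cd68, a lysosomal protein of phagocytes, had 0.12, 0.11 and -0.25 in replicates 1, 2 and 4. Cd200r1, the receptor through which neurons restrain microglia, had 0.16 and 0.38 in replicates 1 and 4. Cd33 had -1.21 in 192 h replicate 2 and 0.33 in replicate 4. Over 8 such genes, 3 of 4 tested lay above 0 at 18 h and 3 of 6 at 192 h, with medians of 0.11 and 0.0044, and none was tested at 72 h.

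Cd52, a small surface glycoprotein of lymphocytes, gave the largest replicate value of any member, a log2 ratio of 2.39 in 192 h replicate 2, against -0.033 in replicate 4. Its 192 h mean was 1.18 ± 0.51 (SE; limma, unadjusted p = 0.0564, adjusted p = 0.999). The log2 ratio of Cd52 was above 0 on all 6 kept arrays with tumour in Cy3 (0.050 to 2.39) and below 0 on all 5 with tumour in Cy5 (-1.62 to -0.40). Replicate 2 was hybridised with tumour in Cy3 alone. Without it the 192 h value of Cd52 was -0.033, and without replicate 4 it was 2.39. Such a split by dye, over probes with at least 3 arrays in each orientation, was seen in 2 of 102 members (1.96%), Cd52 and Irf7, against 0.99% of all probes.

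Cd82 and both Cd47 probes had a value in every replicate. Cd82, a tetraspanin and the brightest member, had -0.041, -0.25 and -0.010 at 18 h, -0.17 and -0.13 at 72 h and -0.18, 0.15, -0.090 and -0.14 in 192 h replicates 1 to 4. It lay below 0 in 8 of 9 replicates, with a mean over the 3 times of -0.10 ± 0.068 (SE; unadjusted p = 0.152, adjusted p = 0.992). Cd47, the "do not eat me" signal read by phagocytes, was measured by 2 probes. The dimmer probe had 0.18, 0.55 and 0.12 at 18 h, all above 0, with a mean of 0.28 ± 0.14 (SE; unadjusted p = 0.0731, adjusted p = 0.995). Without 18 h replicate 4 that mean of Cd47 was 0.15. The brighter probe had 0.15, -0.029 and -0.11 at 18 h and a mean of 0.0042, so the probes of this gene did not share the deviation. Cd63, a lysosomal tetraspanin, had -0.44 and 0.98 at 18 h, and Cd81 had -0.18, -0.26, 0.035 and 0.082 in 192 h replicates 1 to 4. Over 7 tetraspanins, 2 of 4 tested lay above 0 at 18 h, 0 of 3 at 72 h and 2 of 7 at 192 h, with medians of 0.064, -0.080 and -0.065. Cd46, a complement regulator, had 0.47, -0.098 and -0.16 at 18 h, on both sides of 0, and 0.44, 0.11 and 0.072 in 192 h replicates 1, 2 and 4, with a mean of 0.21 ± 0.15 (SE). Without 192 h replicate 1 the 192 h mean of Cd46 was 0.089.

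Cd7, a surface molecule of T and natural killer cells with a value in all 9 replicates, ranged from -0.42 to 0.23. Cd2ap, an adaptor of the actin cytoskeleton, had 0.90 and -0.051 at 18 h and the smallest p of any member over the 3 times, with a mean of 0.28 ± 0.14 (SE; limma, unadjusted p = 0.0889, adjusted p = 0.992). Without 18 h replicate 4 the 18 h value of Cd2ap was -0.051, against a mean of 0.43 with it. Cd48 had 0.0080, 0.044 and -1.12 at 18 h, where the mean of -0.36 rests on replicate 5. Cd177, a neutrophil molecule, had 0.17, 0.28 and 0.26 at 18 h, all above 0 (mean 0.24 ± 0.12, SE), and no value at the later times. Cd151 had 0.070 and 0.39 at 18 h. On the array of 18 h replicate 4 with tumour in Cy3, Cd151 had a log2 ratio of 6.22, but the other orientation gave no value, so that replicate has none.

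Over the 3 times together, 0 of 17 members with values at every time passed the adjusted threshold, against 0% of 3171 probes, and 0 had an unadjusted p under 0.05, against 2.87% of all probes. Between the times, 0 of 17 passed the F test with adjustment, against 0% of all probes, and 0 had an unadjusted p under 0.05, against 1.55%. The smallest unadjusted p between times among the 17 was that of Isg15, at 0.224 (adjusted p = 1.00), with Cd96 next at 0.229. Of probes with at least 3 replicates at 18 h, 8 of 23 members (34.8%) had 1 sign in all of them, against 24.4% of all probes, and at 192 h 6 of 41 did (14.6%), against 14.4%. At 18 h these were Gbp8, Ifitm2, H2-Q5, Cd177 and the dimmer Cd47 probe above 0 and Ifngr2, H2-M2 and Cd82 below it. At 192 h they were Isg15, C1ql1, Cd46 and Cd5 above 0 and C6 and Cd79b below it.

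Genes of the same pathways outside the name rule also had 0 adjusted calls at any time, as had all probes. Beside the unadjusted counts below, the shares of all probes were 4.66% at 18 h, 1.06% at 72 h and 2.59% at 192 h. Each count above 0 is a single gene. Of 20 listed genes of interferon signalling and sensing, 9 were on the arrays, and 5, 3 and 6 of them were tested at 18, 72 and 192 h with no unadjusted p under 0.05. Of 25 listed interferon-induced genes, 14 were on the arrays, and 1 of 9 tested at 18 h, 0 of 9 at 72 h and 0 of 12 at 192 h had an unadjusted p under 0.05. That gene was Tgtp1, an interferon-gamma-induced GTPase, with a mean of 0.31 ± 0.12 (SE) at 18 h. Of 21 listed antigen presentation genes, 8 were on the arrays, and 1 of 7 tested at 192 h, Rfxank, a subunit of the factor that drives class II genes, had an unadjusted p under 0.05 (mean -0.51 ± 0.16, SE). Of 27 listed complement genes, 13 were on the arrays. An unadjusted p under 0.05 was had by 1 of 4 tested at 72 h and 1 of 11 at 192 h. At 18 h, 0 of 5 tested had one. The genes were C4bp, an inhibitor of the cascade, at 72 h (0.43 ± 0.18, SE) and Masp1, a protease of the lectin pathway, at 192 h (-0.31 ± 0.12, SE).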

How the data were processed

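Per the file headers, each of the 3 scanner files of an array holds, for both channels, a spot intensity from which the authors' software had subtracted the local background. The authors' deposited table gives 1 score per spot, a log ratio whose base and normalisation are not given in the sources used here, and it served as an alternative only. Each array has 10080 spots, and usable spots per file ran from 1821 to 8638 on the kept arrays. The number of arrays limits the precision.

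Spots with the quality letters B, X, Y or Z, or with no positive intensity in both channels, were left out. Log2 ratios were normalised in each file by loess against mean intensity (span 0.3, 4 iterations), given the direction tumour over PBS, and then averaged, first over files and then over dye orientations. A dye-swapped replicate needed both orientations. Spot numbers follow the print grid, not the order of lines in the file. Of 23 arrays, 7 were left out because the brightness order of their probes matched arrays of other layouts at a mean Spearman rho of 0.0075 to 0.057, against 0.19 to 0.50 on the kept arrays. Spots with several symbols (12 per layout, 1 of which matches the rule) were left out. Symbols were updated by gene identifier through RefSeq names of GRCm38.p6, and no member's symbol changed.

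A linear model with 1 mean for each time was fitted to every probe that had 2 or more replicates there, and limma 3.58.1 (squeezeVar, R 4.3.3) moderated the variances. The Benjamini-Hochberg adjustment ran over all tested probes, with 0.05 as the threshold. The fit equalled lmFit with eBayes on probes without missing values and was tested on simulated data with 200 changed probes. Of 100 changes of 1 log2 unit, 72, 73 and 69 passed the adjusted threshold at 18, 72 and 192 h. Of 100 changes of 2 log2 units, 98, 96 and 97 did. There were 10, 1 and 4 false calls, so part of the true 2-fold changes would be missed. The simulated noise was independent between probes and held no dye effect. With fewer changed probes than 200 the adjusted threshold is harder to pass. The recovered shares therefore hold for the simulated setting and are no estimate for a few changed members in the real data. Replicates of 1 number did not deviate together across times (correlations from -0.13 to 0.014), so the numbers were not taken as pairs. The members, classes and lists were chosen with earlier results of these data known. Genes named are, per time, the 10 members of smallest p and the smallest of each class, every tested member outside the CD class, members with a value in all replicates, the brightest of each class, and the 5 of smallest p over and between the times. Cd3e at 72 h, Cd14, Cd33, Cd63, Cd68, Cd81, Irf7 and others outside this rule were named after their values were seen. Alternatives covered background, normalisation, scaling, single scanner files, dye, brightness, RNA type, layout, the deposited scores and each replicate left out.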

Additional observations from a re-analysis of the deposited data

Results flagged for a closer look

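Of 13 sets of 4 replicates examined, all at 192 h, 2 held a replicate set far from the other 3, where the gap passed Dixon's 95% critical share of the whole range. About 1 in 20 such sets would be marked by chance if the replicates had equal spread. They did not, since the SDs over all probes were 0.49, 0.47, 0.24 and 0.18 in 192 h replicates 1 to 4. The chance rate therefore does not hold here, and no share over all probes is at hand to set beside the 2 of 13. Cd247 had a log2 ratio of -0.21 in replicate 3, against 0.18, 0.19 and 0.24 in replicates 1, 2 and 4. The array with tumour in Cy5 gave Cd247 -0.46 there and the array with tumour in Cy3 gave 0.046. The brighter Cd47 probe had 0.44 in replicate 1, measured with tumour in Cy5 alone, against -0.049, -0.041 and 0.015 in replicates 2 to 4. Whether the dye or the RNA type of that replicate has a part in it was not tested.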

How the results depend on the processing

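The count of members past the adjusted threshold was 0 under each of 23 alternatives at 18, 72 and 192 h, 22 for the mean of the times and 23 between them, the fit with the replicate number as a block among them (0 of 14 members, against 3 of 2553 probes). Leaving out each replicate in turn left every such count between 0 and 0. Where a setting left 1 replicate at a time, that replicate is assumed to vary like the others. The layout block was run for the single times only. Unadjusted p under 0.05 was had by 0 to 4 members at 18 h, 0 to 5 at 72 h and 0 to 7 at 192 h. The 7 came without loess, of 76 members tested, against 139 of 7136 probes. The 5 came with all arrays under their deposited names, of 103 members, against 552 of 8459 probes. The 4 came with the dye covariate, of 61 members, against 342 of 5733 probes. They came also without 18 h replicate 5, of 52 members, against 257 of 5221 probes. Over all probes, adjusted calls reached 6 at 18 h (without replicate 3), 9 at 72 h (without replicate 3) and 8 at 192 h (without replicate 4), and none of them was a member.

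The member median at 18 h moved to -0.038 with the second scanner file alone and -0.036 with the third, which test 15 and 18 members. Leaving out replicates gave -0.0088 to 0.062. At 72 h it was 0.039 with replicates of both orientations only, and -0.022 to 0.050 with replicates left out. At 192 h it was -0.10 without loess, against 0.052 for all probes, and -0.020 to 0.0087 with replicates left out. The cause of these shifts was not tested. The 130 values of named members had 2678 alternative values. Of these, 278 had the other sign, 216 moved by more than the replicate SD and 0 passed the adjusted threshold. Many could not move, since leaving out a replicate of another time leaves the estimate as it was. At 18 h the settings for dye, both orientations, all arrays and total RNA also left the member median at 0.027. The share that turned is thus lower than among the settings that act on a value. Gbp8, Ifitm2 and H2-M2 at 18 h and C1ql1 and H2-Q5 at 192 h kept their sign in every alternative that gave a value. C1qtnf2 at 72 h turned in 1, with all arrays under their deposited names. These genes were named for small p-values and their replicates at that time share a sign. Leaving 1 replicate out could therefore not turn their means. The alternatives ran from 0.27 to 0.52 for Gbp8, 0.14 to 0.63 for Ifitm2 and -0.51 to -0.24 for H2-M2. For C1ql1 they ran from 0.18 to 0.50 and for H2-Q5 from -0.82 to -0.19. Signal over background was low throughout: the median ratio of total spot signal to background was 2.0 to 3.15 on the kept arrays.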

Other observations

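Markers of other cell types were read in the same fit. Of 6 microglia and macrophage genes on the arrays outside the members, 1 of 4 tested lay above 0 at 18 h, 1 of 3 at 72 h and 4 of 5 at 192 h, with medians of -0.13, -0.12 and 0.065 and no unadjusted p under 0.05. Of 4 T and B cell genes, 1 of 1, 2 of 2 and 1 of 4 tested lay above 0, and of 5 neutrophil genes 0 of 2, 1 of 2 and 1 of 3 did. Of 5 genes of tumour epithelium, 3 of 5 lay above 0 at 18 h, 1 of 2 at 72 h and 2 of 4 at 192 h. Cldn4, a tight junction gene of epithelium, had 0.44 ± 0.16 (SE) at 72 h (unadjusted p = 0.0280, adjusted p = 1.00). Of 3 genes of the choroid plexus and meninges tested at 18 h, 2 lay above 0, and of 5 neuronal genes tested there 2 did (median -0.020). Igf2, a growth factor of the choroid plexus and meninges, had 0.53 ± 0.21 (SE) at 18 h, and Snap25, a neuronal gene, had -0.65 ± 0.22 (SE) there, with unadjusted p of 0.0342 and 0.0147 and adjusted p of 0.995 for both. None of these passed the adjusted threshold.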
